A study of Mus musculus with 10 samples.

Results

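The genes described are 7 matrix metalloproteinases (Mmp2, Mmp3, Mmp9, Mmp10, Mmp11, Mmp13 and Mmp14) and 3 tissue inhibitors of metalloproteinases (Timp1, Timp2 and Timp3). All probe sets that the platform's gene table assigns to these symbols were taken, 22 of the 45037 probe sets tested, or 10 of 18193 named genes. They were read on 10 Affymetrix arrays of total RNA from secondary inducible mouse embryonic fibroblasts of a hybrid of 129/SvJ and C57/B6, cells in which doxycycline switches on reprogramming factors that the labels do not name. The induced cells were kept for 96 h with doxycycline, labelled as 2 ug/ul, in 15% serum, and were parted by their average number of cell divisions into cohorts of 0, 1, 2 and at least 3 (written 3+). How they were parted is not stated, and the titles of the 3+ arrays name only the induction. The control cells were of the same inducible kind but were uninduced and held in 0.5% serum for 96 h. Each of the 5 groups had 2 arrays. The labels call the replicates of the 3+ cohort and the control biological and those of the other cohorts only replicates, and name no separate cultures or animals, so the p-values measure the spread between these arrays, which may be technical for the cohorts of 0, 1 and 2 divisions. Doxycycline and serum both differ between the induced cells and the control and cannot be told apart.

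Matrix metalloproteinases are zinc enzymes that cut collagens, proteoglycans and other proteins of the extracellular matrix, and are made as inactive proenzymes. Timps bind their active sites and block them. Fibroblasts are a main source of both, and at their surface Timp2 also links pro-Mmp2 to Mmp14, the membrane-type enzyme that activates it. The messages of the inducible members are textbook targets of the transcription factor AP-1.

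Mmp13, Mmp3 and Mmp10 lie in one cluster of metalloproteinase genes on chromosome 9, and their promoters are shown because these neighbours share short motifs while their readings across the cohorts differed. RefSeq (GRCm38.p6) gave a promoter for 8 of the 10 genes. The 7-base AP-1 motif TGANTCA, which reads the same on both strands, was found in the 250 bases before the start of 3 of these 8 genes, Mmp13, Mmp3 and Mmp10, and in 6.75% of 32851 promoters of the same length. The motif TATAAA, searched on both strands and not overlapping the other in these genes, was found in the same 3 genes and in 12.37% of all promoters. The AP-1 match began 35 bases before the annotated start in Mmp13, 46 before in Mmp3 and 63 before in Mmp10. The 150 bases before the start are given 5′ to 3′ with the AP-1 match in capitals, for Mmp13 at chr9:7272364-7272513, Mmp3 at chr9:7445672-7445821, Mmp10 at chr9:7502192-7502341 and, as a gene without a match, Timp1 at chrX:20870016-20870165, all on the plus strand.
Mmp13: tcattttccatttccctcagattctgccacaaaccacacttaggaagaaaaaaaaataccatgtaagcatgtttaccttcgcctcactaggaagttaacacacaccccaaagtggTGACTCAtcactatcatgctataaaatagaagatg
Mmp3: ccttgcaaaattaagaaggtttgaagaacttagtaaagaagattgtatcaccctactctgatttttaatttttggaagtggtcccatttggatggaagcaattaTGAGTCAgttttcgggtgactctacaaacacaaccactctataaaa
Mmp10: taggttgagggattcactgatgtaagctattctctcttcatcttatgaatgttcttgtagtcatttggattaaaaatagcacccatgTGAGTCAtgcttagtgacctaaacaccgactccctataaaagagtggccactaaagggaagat
Timp1: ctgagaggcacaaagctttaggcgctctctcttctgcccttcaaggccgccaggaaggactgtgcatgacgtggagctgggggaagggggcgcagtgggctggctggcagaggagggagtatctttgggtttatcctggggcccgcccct
A match describes letters in this window only, and binding of a factor was not measured.

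The arrays had near-equal distributions, with medians of 31.42 to 33.95 in the deposited linear intensity, and the 2 arrays per group limited the precision. No detection calls were given. The 3+ cohort and the control carry RMA in the submitters' processing notes, and the other 6 arrays no named tool, so in comparisons across these 2 sets the set and the group cannot be told apart. For the labelled cell type 12 of 12 fibroblast markers were measured, with a summed intensity of 83680 to 99070 in the 3+ cohort, against 145700 to 152200 in the control. Col1a2, Col3a1, Thy1, Pdgfra, Pdgfrb, Dcn and Postn were lower there (limma adjusted p of 0.000358 to 0.0451). Col1a1, Lum and Fn1 stood lower and did not pass. Vim and S100a4 stood above the control, by 0.07 and 0.77 (log2), and did not pass either. The summed level of 10 keratinocyte and epithelial markers was 1520 to 2437 in the cohort of 2 divisions and 7096 to 7860 in the 3+ cohort, against 321.1 to 347.2 in the control. In the 3+ cohort 5 of these 10 were higher than in the control (Cdh1, Krt14, Krt8, Krt19 and Dsp), and Krt5, Trp63, Epcam, Krt18 and Cldn4 did not pass (adjusted p of 0.149 to 0.948). Of the leukocyte lists, which would matter for Mmp9, 9 of 10 neutrophil markers were measured and summed to 157.2 to 171.2 against 167.0 to 168.4. The 13 macrophage markers summed to 498.5 to 568.3 against 345.4 to 348.4, where Cd68 stood at 312.3 and 251.0 against 30.95 and 18.58, Lyz2 at 33.95 and 32.98 against 81.50 and 99.08, and the pan-leukocyte gene Ptprc at 11.88 and 17.16 against 13.40 and 13.71. No marker was listed at 0 on these arrays. The 8 endothelial markers summed to 435.8 to 496.4 against 289.0 to 683.0. Among them Tek was higher in the 3+ cohort (log2 difference 2.44, limma adjusted p = 0.000615). Flt1 (-2.03, adjusted p = 0.0488) and Kdr (-0.55, adjusted p = 0.0326) were lower, and Pecam1, Cdh5, Tie1, Emcn and Vwf did not pass. Flt1 stood at 127.7 and 525.0 on the control arrays. The 3-prime minus 5-prime difference of the Gapdh control probe sets, which reflects RNA integrity, was 0.27 and 0.27 (log2) in the 3+ cohort, against 0.06 and 0.03 in the control. The part of these shifts in the results below was not tested, and in bulk RNA fewer cells of a type cannot be told apart from less RNA per cell.

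In induced cells of 3+ divisions, the gelatinase gene Mmp2, its membrane activator gene Mmp14 and the inhibitor gene Timp3 were lower than in the control, and Timp1 was higher. Of the 22 probe sets 9 passed as lower and 1 as higher in limma's test (adjusted p under 0.05 over all 45037 probe sets). Over all probe sets 9.38% were lower and 11.3% higher in this comparison, 20.7% together. The median log2 difference of the 22 was -0.69, beside 0.00 for all probe sets. Timp2, Timp3 and Mmp14 hold 6, 4 and 3 of the 22. By gene, with the brightest probe set of each, the median of the 10 was -0.24, beside 0.02 for all genes. Of the 10 genes 3 were lower and 1 higher, and 5 had a difference above 0. With only probe sets brighter than the median tested, 11 of 17 passed, where 9002 of 22518 did. Timp1, Timp2 and Timp3 did not share a direction, Timp1 standing above the control and the others below it.

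**Figure D1:**
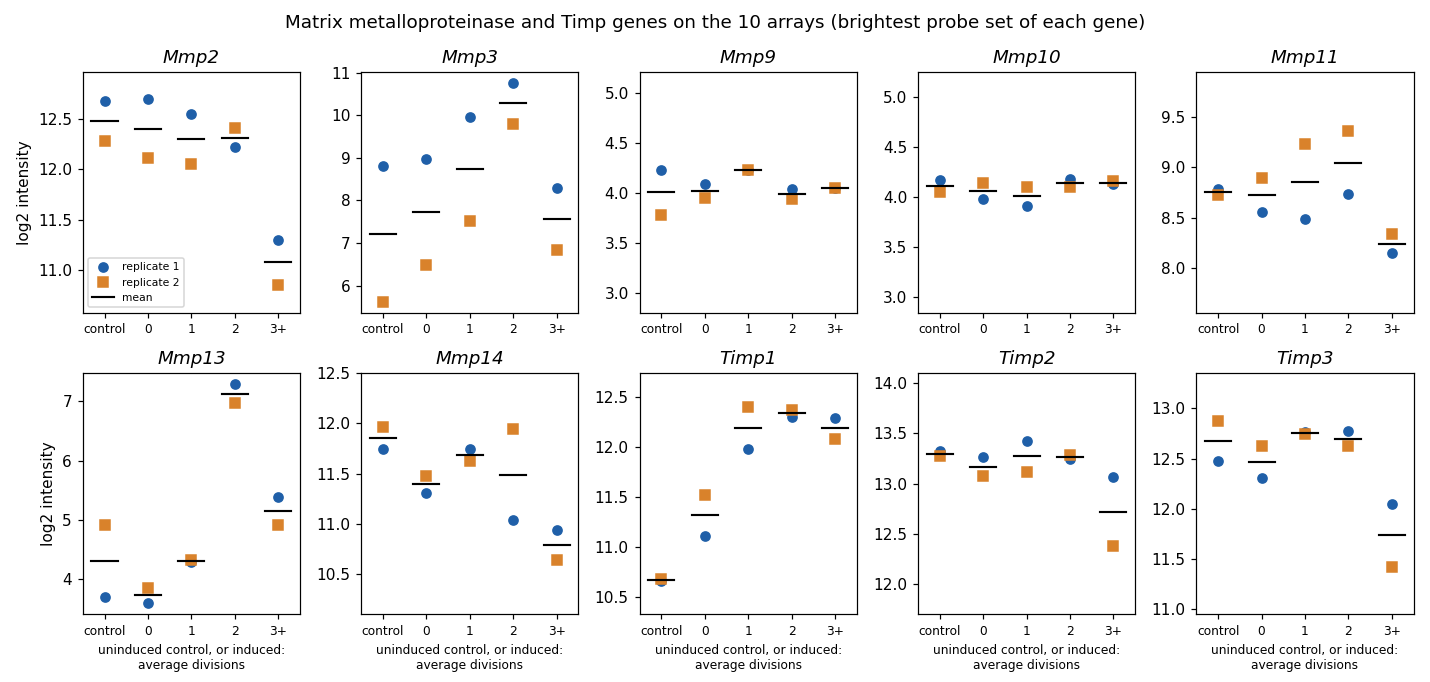
Log2 intensity of the brightest probe set of each of the 10 genes (vertical axes, each panel with its own range) on the 2 arrays of each group, with the control at the left and the induced cohorts by average divisions. Circles are replicate 1, squares replicate 2 and bars their mean. Mmp13 stands highest in the cohort of 2 divisions, Timp1 is above the control in every induced cohort, and Mmp2, Timp2 and Timp3 are lowest in the 3+ cohort.

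Mmp2, gelatinase A, which cleaves basement membrane collagen and denatured collagen, read 11.30 and 10.85 (log2 intensity) in the 3+ cohort, against 12.68 and 12.28 in the control. All arrays of the cohort lay below those of the control. The log2 difference was -1.41 ± 0.27 (SE), with Mmp2 2.66-fold lower (limma adjusted p = 0.00688). The other Mmp2 probe set gave 11.16 and 10.61 against 12.40 and 12.12, a difference of -1.38 ± 0.28 (adjusted p = 0.0097), so both of its probe sets passed. Across the other groups Mmp2 moved little, with means of 12.41 ± 0.41, 12.30 ± 0.36 and 12.32 ± 0.14 (SD, n = 2 each) after 0, 1 and 2 divisions, against 12.48 ± 0.28 in the control. The arrays of these 4 groups overlapped, and only the 3+ cohort lay apart. Without replicate 2 of that cohort the difference from the control was -1.19 and lost its call (adjusted p = 0.0651).

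Mmp14, the membrane-type enzyme that cleaves fibrillar collagen and activates pro-Mmp2, had the same direction on all 3 of its probe sets. The brightest read 10.94 and 10.64 in the 3+ cohort, against 11.75 and 11.96 in the control, a log2 difference of -1.06 ± 0.27 (SE, adjusted p = 0.024). The other probe sets differed by -1.16 ± 0.25 (adjusted p = 0.0125) and -0.67 ± 0.12 (adjusted p = 0.00595). Arrays of the cohort and the control did not overlap on any of the 3. Mmp14 also read below the control in the cohort of 0 divisions without overlap, at 11.30 and 11.48. After 1 division it read 11.74 and 11.63, with replicate 1 level with control replicate 1 (3411 against 3390 in deposited units). The differences from the control, -0.46 ± 0.27 after 0 divisions and -0.17 ± 0.27 after 1, did not pass (adjusted p = 0.674 and 0.881). After 2 divisions its arrays stood at 11.04 and 11.94 and overlapped those of the control and of 0 and 1 division. The call of the brightest probe set against the control was lost without either control array or without either array of the cohort (differences of -1.21 to -0.91, adjusted p of 0.0565 to 0.157) and with deposited values below 16 raised to that floor (adjusted p = 0.0753).

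Timp3, the inhibitor that is bound to the matrix and also blocks Adam17, read 12.05 and 11.42 in the 3+ cohort, against 12.48 and 12.88 in the control. Its log2 difference was -0.94 ± 0.22 (SE), or 1.92-fold lower (adjusted p = 0.0194). Of its 4 probe sets 3 passed, with differences from -1.15 to -0.94 over the 4. The remaining one, at -1.07 ± 0.33, missed the threshold (adjusted p = 0.0531) and passed once the replicate number was a block (adjusted p = 0.0324). In the cohorts of 0, 1 and 2 divisions Timp3 differed from the control by -0.21, 0.08 and 0.02, with overlapping arrays. Without replicate 2 of the 3+ cohort the difference was -0.63 (adjusted p = 0.126), without control replicate 2 it was -0.74 (adjusted p = 0.104), and in the 4 compared arrays alone or with a floor of 16 the call was lost too (adjusted p = 0.0685 and 0.0598).

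Timp2, which both inhibits Mmp14 and takes part in Mmp2 activation, stood lower on all 6 of its probe sets, by -1.04 to -0.57, but only 1 passed. That probe set read 10.71 and 9.83 in the 3+ cohort, against 11.37 and 11.25 in the control, a log2 difference of -1.04 ± 0.27 (adjusted p = 0.0292). The brightest, marked by its name as one that can match several transcripts, read 13.06 and 12.38 against 13.32 and 13.27, a difference of -0.58 ± 0.22 that did not pass (adjusted p = 0.101). With the replicate block 5 of the 6 passed as lower, the brightest among them (adjusted p = 0.0311). The remaining probe set was dim, at 11.12 to 30.60 in deposited units, below every array's median. On 1 of the 5 the arrays of the cohort and the control overlapped, at 13.11 and 12.33 against 13.51 and 13.09. On all 6 probe sets replicate 2 of the 3+ cohort read lower than replicate 1, by 0.45 to 0.88 on the log2 scale. Leaving out replicate 1 of the cohort moved the difference of the brightest to -0.92 (adjusted p = 0.0155), and leaving out replicate 2 left -0.24.

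Over the 22 probe sets together, the count of calls in this comparison moved when any of the compared arrays was left out. It moved most for the 2 arrays given next. Without replicate 2 of the 3+ cohort only Timp1 passed, a count of 1, and without control replicate 2 the count was 5. With the replicate block, 14 passed as lower and 1 as higher, where 29.3% of all probe sets passed in either direction.

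**Figure D2:**
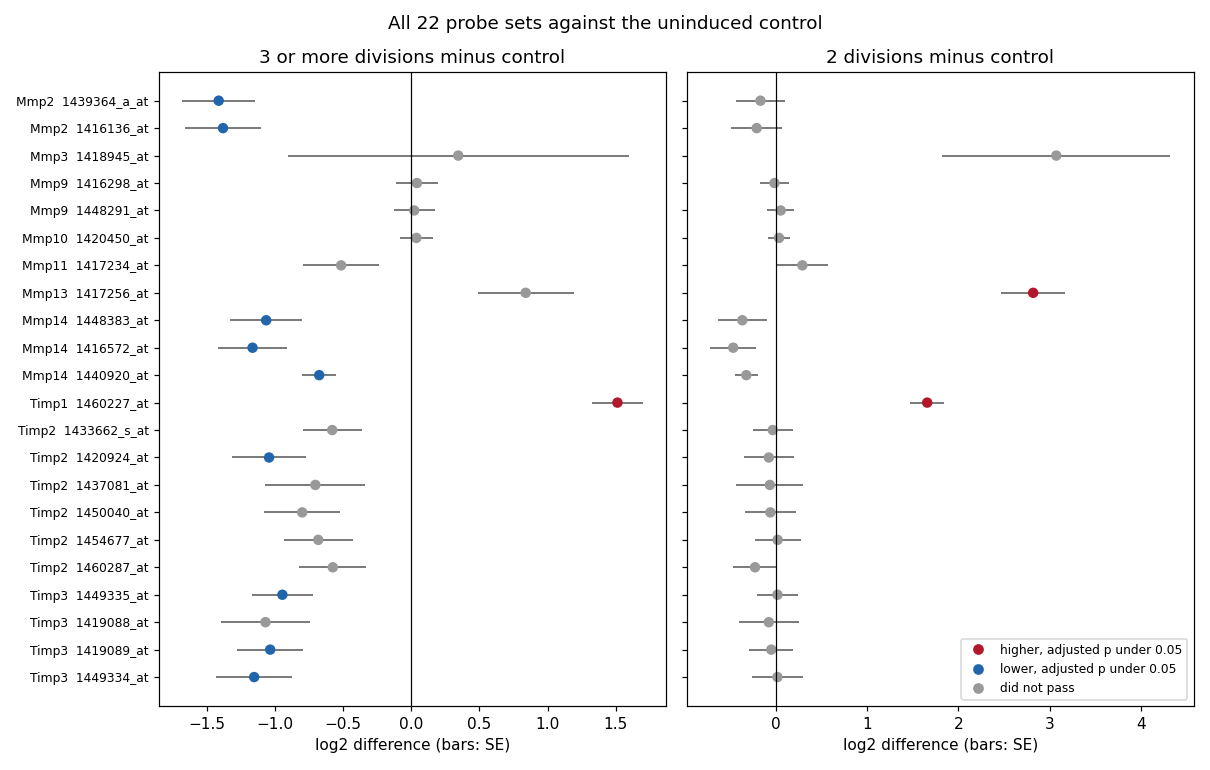
Log2 difference from the control (horizontal axes, bars are SE) for each of the 22 probe sets, in the 3+ cohort at the left and of 2 divisions at the right; colours mark adjusted p under 0.05. At 3+ divisions 9 probe sets of Mmp2, Mmp14, Timp2 and Timp3 passed as lower and Timp1 as higher, and at 2 divisions Mmp13 and Timp1 passed as higher and 0 as lower.

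Timp1, an inhibitor with wide reach over the secreted metalloproteinases and a growth-responsive gene of fibroblasts, passed as higher than the control in the cohorts of 1, 2 and 3+ divisions. It read 12.29 and 12.08 in the 3+ cohort, against 10.67 and 10.68 in the control, 2.85-fold higher with a log2 difference of 1.51 ± 0.18 (SE, adjusted p = 0.00108). This call held in all 17 other fits. The cohort of 1 division was as far above the control as the 3+ cohort. After 0 divisions Timp1 read 11.11 and 11.52, after 1 division 11.98 and 12.40, and after 2 divisions 12.30 and 12.37. All of these arrays lay above both control arrays, and those of 1, 2, and 3+ divisions overlapped one another except that 3+ divisions lay just below 2. In deposited units these last cohorts overlapped too, with 5105 in replicate 1 of 3+ against 5064 in replicate 1 of 2 divisions. Against the control the differences were 0.64 ± 0.18 after 0 divisions (adjusted p = 0.279), 1.51 ± 0.18 after 1 (adjusted p = 0.0223) and 1.66 ± 0.18 after 2 (adjusted p = 0.00566).

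Among induced cells, Timp1 was 1.83-fold higher after 3+ divisions than after 0 (log2 difference 0.87 ± 0.18, adjusted p = 0.025). After 2 divisions it was 2.02-fold higher than after 0, a difference of 1.02 ± 0.18 that did not pass (adjusted p = 0.18) and passed with the replicate block (adjusted p = 0.0343). The call after 1 division against the control was lost without either control array, without either array of 3+ divisions, without replicate 2 of the cohort itself (differences of 1.30 to 1.52, adjusted p of 0.0582 to 0.108), with a floor of 16 (adjusted p = 0.0695) and in the 4 compared arrays alone (adjusted p = 0.261). The call after 2 divisions against the control was lost only without replicate 1 of that cohort (1.69, adjusted p = 0.055), and that of 3+ against 0 without replicate 1 or 2 of the later cohort or replicate 1 of 0 divisions (0.67 to 0.97, adjusted p of 0.111 to 0.16), with a floor of 16 (adjusted p = 0.0653) and in the compared arrays alone (adjusted p = 0.0516).

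Mmp13, collagenase-3, which cuts fibrillar collagen, had its highest readings in the cohort of 2 divisions. It read 7.29 and 6.97 there, against 3.71 and 4.92 in the control, 7.05-fold higher with a log2 difference of 2.82 ± 0.35 (SE, adjusted p = 0.00795). Its readings in the other induced cohorts were 3.60 and 3.86 after 0 divisions, 4.29 and 4.33 after 1, and 5.38 and 4.92 after 3+. The arrays of 2 divisions stood above all other arrays, those of 3+ divisions lay above those of 0 and 1, with the lower of them level with control replicate 2, and those of 0 divisions lay below those of 1. In deposited units Mmp13 was 158.8 and 126.1 after 2 divisions, against 13.09 and 30.67 in the control, and the control readings lay below their arrays' medians, so the fold is not exact. Without control replicate 1 the log2 difference was 2.21 and without control replicate 2 it was 3.43, both called (adjusted p = 0.0138 and 0.00631).

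Against 0 divisions Mmp13 was higher after 2 divisions, with a log2 difference of 3.40 ± 0.35 (adjusted p = 0.0285). Its deposited readings after 0 divisions, 12.01 and 14.68, lay far below the array medians, in the range of Mmp9 and Mmp10, so no fold is given over that cohort. Over all probe sets 0.0466% passed as higher in this comparison (0.0488% in either direction), and Mmp13 was the only one of the 22 to do so, a count that became 3 with the block, where 0.864% of all probe sets passed. After 3+ divisions it was also higher than after 0 (1.43 ± 0.35, adjusted p = 0.0417). In a comparison added after the data were seen, it was 3.94-fold lower after 3+ divisions than after 2 (-1.98 ± 0.35, adjusted p = 0.035). Against the control, 3+ divisions differed by 0.84 ± 0.35 and did not pass (adjusted p = 0.14), but did without control replicate 2, where Mmp13 read 1.21 above replicate 1 (1.45, adjusted p = 0.00858). The call of 2 divisions against 0 was lost in each of the 8 fits that left out an induced array (differences of 3.25 to 3.56). The call of 3+ against 0 was lost in the same 8 (1.19 to 1.66). Where the array left out was of neither compared cohort, the difference itself did not change. The call of 3+ against 2 divisions was lost without any array of 0, 2 or 3+ divisions (-2.21 to -1.75, adjusted p of 0.0633 to 0.282). Under a floor of 16 these differences were 3.13, 1.15 and -1.98 and all 3 calls were lost (adjusted p = 0.156, 0.117 and 0.068), and the first in the compared arrays alone (adjusted p = 0.192). The call of 2 divisions against the control was lost without replicate 1 of that cohort (2.66, adjusted p = 0.0783) and in the compared arrays alone (adjusted p = 0.0716).

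Mmp3, stromelysin, which cleaves proteoglycans and activates other pro-enzymes, had its highest group mean in the same cohort but differed by replicate number throughout. It read 10.77 and 9.81 after 2 divisions, against 8.81 and 5.62 in the control. The readings were 8.97 and 6.47 after 0 divisions, 9.97 and 7.52 after 1, and 8.29 and 6.82 after 3+. Replicate 1 lay above replicate 2 in all 5 groups, by 0.96 to 3.19, and the groups next to each other in order overlapped. The log2 difference of 2 divisions from the control was 3.07 ± 1.25 (SE) and did not pass (adjusted p = 0.244), but passed with replicate as a block (adjusted p = 0.00316), where 10.7% of all probe sets did. Without control replicate 1 the difference was 4.67 and without control replicate 2 it was 1.48, and that of 2 against 0 divisions ran from 1.31 without replicate 2 of 0 divisions to 3.81 without replicate 1. Within replicate 1 Mmp3 after 2 divisions was 1.96 above its control array, and within replicate 2 it was 4.19 above. The block also called Mmp3 higher after 2 divisions than after 0 (2.56, adjusted p = 0.0364, against 0.749 without it) and lower after 3+ than after 2 (-2.73, adjusted p = 0.00635, against 0.291). After 3+ divisions it differed from the control by 0.34 ± 1.25, with 1 array pair above 0 and the other below.

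**Figure D3:**
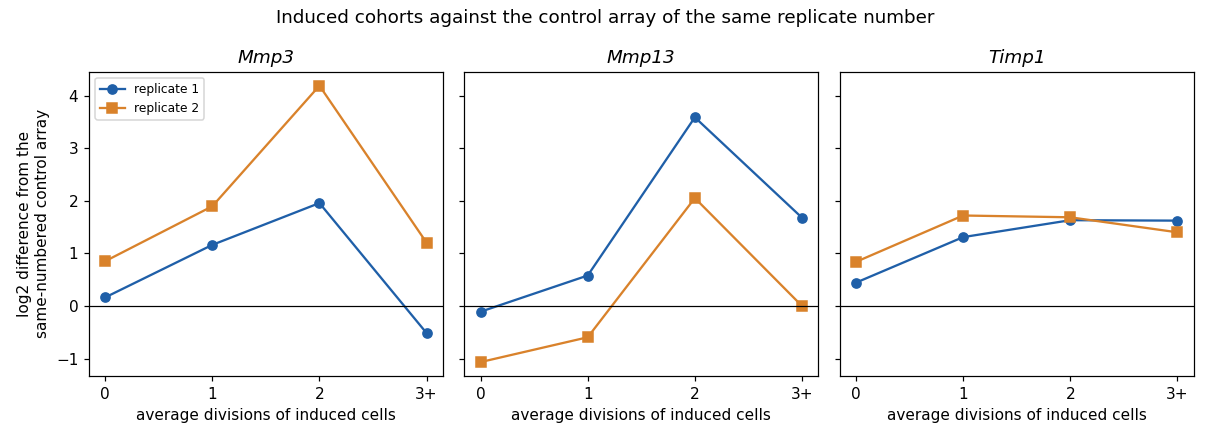
Log2 difference of each induced array from the control array of the same replicate number (vertical axis, shared) for Mmp3, Mmp13 and Timp1 across average divisions (horizontal axis). Mmp3 and Mmp13 are highest at 2 divisions in both numbers (1.96 and 4.19 for Mmp3, 3.59 and 2.05 for Mmp13), while Timp1 lies between 1.31 and 1.72 from 1 division on.

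The slope over the cohorts of 0, 1 and 2 divisions, fitted to their 6 arrays, passed for 0 of the 22 probe sets and for 0% of all (0 of 45037 in limma, against 3602, or 8%, at an unadjusted p under 0.05, of which 3 were among the 22). With the replicate block 2 of the 22 passed, Mmp13 at 1.70 per division (adjusted p = 0.0182) and Mmp3 at 1.28 (adjusted p = 0.0162), where 1.4% of all probe sets passed. The Mmp13 means were 3.73, 4.31 and 7.13 after 0, 1 and 2 divisions, so its slope does not describe even steps.

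Mmp9 and Mmp10 gave dim and level readings. Mmp9, gelatinase B, read 4.05 and 4.05 in the 3+ cohort, against 4.23 and 3.78 in the control, a log2 difference of 0.04 ± 0.15, and its other probe set 3.60 and 3.62 against 3.45 and 3.73. Mmp10, stromelysin-2, read 4.13 and 4.15 against 4.16 and 4.05, a difference of 0.04 ± 0.12. Over the 5 groups the means were 4.01 to 4.14 for Mmp10 and 3.99 to 4.23 for the brighter Mmp9 probe set. On the deposited scale their values were 10.89 to 19.04, below every array's median, so these readings do not show whether the genes were expressed. The sign of both differences turned without control replicate 2 (-0.18 for Mmp9 and -0.02 for Mmp10), and that of Mmp9 with a floor of 16 as well (-0.07). Other members of the chromosome 9 cluster read as dimly on all 10 arrays, with Mmp1a, Mmp1b, Mmp7, Mmp8, Mmp12 and Mmp20 at or under 4.47.

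Mmp11, a stromelysin that leaves the cell already activated by furin, read 8.14 and 8.34 in the 3+ cohort, against 8.78 and 8.73 in the control. These arrays did not overlap, and the log2 difference of -0.51 ± 0.28 did not pass (adjusted p = 0.252). After 2 divisions it read 8.73 and 9.36, the highest group mean but overlapping the arrays of the control and of 0 and 1 division. Against that cohort the 3+ cohort differed by -0.81 ± 0.28 (adjusted p = 0.164, and 0.0246 with the replicate block).

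Against the control, the count of calls was larger in cohorts of more divisions, for the 22 probe sets and for all. Induced cells of 0 divisions had 0 of the 22 probe sets past the test against the control (0.122% of all probe sets passed, and 2 of the 22, like 9.68% of all, had an unadjusted p under 0.05). Those of 1 division had 1, Timp1 (0.491% of all passed as higher, 0.673% in either direction), and those of 2 divisions had 2, Mmp13 and Timp1 (2.48% of all passed as higher, 4.15% in either direction). These comparisons share the control arrays. Those of 0, 1 and 2 divisions set arrays with no named tool against a control labelled RMA, and that of 3+ divisions does not. Between 2 and 3+ divisions a change of set and a change of cohort cannot be told apart. For 3+ divisions against 0, 4 of the 22 passed, where 9.29% of all did, 5.25% as higher and 4.04% as lower. They were Mmp13 and Timp1 as higher and both Mmp2 probe sets as lower, at -1.33 ± 0.27 and -1.33 ± 0.28 (adjusted p = 0.0204 and 0.0247). Mmp2 lost this call without replicate 2 of the later cohort (-1.11, adjusted p = 0.165), without replicate 1 of 0 divisions (-1.04, adjusted p = 0.133) and with a floor of 16 (adjusted p = 0.0703). With the replicate block 10 of the 22 passed there, where 18.4% of all did, among them Timp3 (-0.73, adjusted p = 0.0499) and 3 probe sets of Timp2 as lower. Without replicate 2 of the 3+ cohort, or without replicate 1 of 0 divisions, 0 of the 22 passed.

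Whether the lower readings belonged to the step between 2 and 3+ divisions was asked in an added comparison of these cohorts. Of the 22 probe sets 2 passed, both lower, Mmp13 and the brighter one of Mmp2, where 1.29% of all passed as lower and 2.92% in either direction. Mmp2 was at -1.24 ± 0.27 with an adjusted p of 0.04997, and lost its call in 8 of the 10 fits that left out an array, all but those without an array of 1 division (-1.47 to -1.02, adjusted p of 0.0636 to 0.361). It also lost it without quantile normalization (adjusted p = 0.0514), with arrays centred on the median (adjusted p = 0.0508) and with a floor of 16 (adjusted p = 0.122). The other Mmp2 probe set differed by -1.17 ± 0.28 and did not pass (adjusted p = 0.0667), but passed with the replicate block (adjusted p = 0.00856). Timp3 differed by -0.96 ± 0.22 (adjusted p = 0.0629) and Mmp14 by -0.70 ± 0.27 (adjusted p = 0.204). Timp3 passed with only probe sets brighter than the median tested (adjusted p = 0.0491). With the block 11 passed as lower, where 12.3% of all passed in either direction, Timp3 among them (adjusted p = 0.0235). Between 1 and 0 divisions, also added, limma called 0 of the 22 and 0% of all probe sets, with 1 of the 22 (Timp1) and 1232 of all, or 2.74%, at an unadjusted p under 0.05.

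The wider set of pericellular proteases and their regulators was described with 4 further lists, each gene by its brightest probe set, for 3+ divisions against the control, where 15.1% of all 18193 genes passed as higher and 10.9% as lower. Of 24 measured Adam and Adamts genes 10 were lower and 2 higher, with a median of -0.37 beside 0.02 for all genes. The lower ones were led by Adamts9, a versican-cleaving enzyme (-4.41 ± 0.33, SE), the aggrecanase Adamts5 (-3.63 ± 0.37), the procollagen-processing enzyme Adamts3 (-3.58 ± 0.80), Adamts1 (-2.78 ± 0.60), Adamts6 (-2.31 ± 0.31) and Adamts10 (-1.87 ± 0.23). Of 12 other Mmps and Timp4 measured, 3 passed, all lower, Mmp23 (-2.44 ± 0.65), Mmp19 (-1.78 ± 0.28) and the membrane-type Mmp16 (-1.66 ± 0.41), with a list median of -0.01.

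Of 16 activators and inhibitors of these enzymes 7 were lower and 1 higher, with a median of -0.42. Reck, a membrane-anchored inhibitor of Mmp2, Mmp9 and Mmp14, read 9.77 and 8.95 in the 3+ cohort, against 11.28 and 11.56 in the control (-2.06 ± 0.28, SE, adjusted p = 0.0016). The proprotein convertase Pcsk5 (-2.87), the thrombospondins Thbs2 (-2.69) and Thbs1 (-1.62) and the clearance receptor Lrp1 (-1.31) were lower, and Cd44, a hyaluronan receptor that can hold Mmp9 at the cell surface, was higher (2.46 ± 0.36). In the plasminogen list of 10 measured genes, St14, the epithelial serine protease matriptase (1.96), and Serpinb2, an inhibitor of plasminogen activators (1.49), were higher, and Hgf (-1.95) and the tissue plasminogen activator gene Plat (-1.83) lower. Serpinb2 and St14 read 3.43 to 4.47 on the control arrays, so their folds are not exact.

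**Figure D4:**
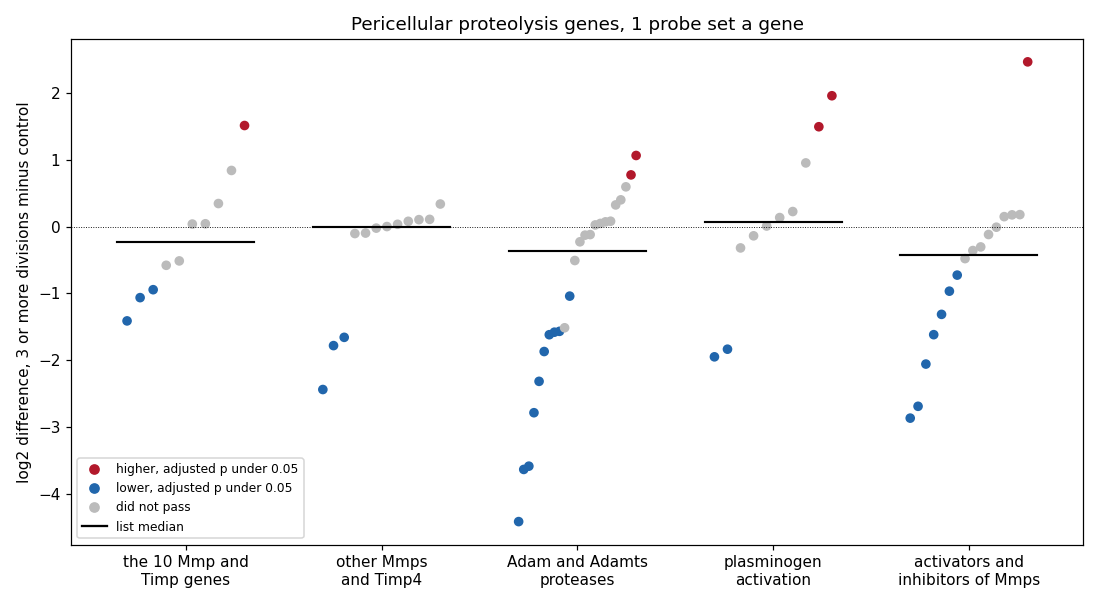
Log2 difference of 3+ divisions minus control (vertical axis) for 1 probe set per gene, in the 10 Mmp and Timp genes and 4 lists of related genes; each point is a gene, colours mark adjusted p under 0.05 and bars are list medians. Among the 10 genes 3 passed as lower and 1 as higher, and the Adam and Adamts list holds the lowest points, down to -4.41.

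The genes whose log2 values over the 10 arrays were most like those of 2 members were sought among 2142 genes, those brighter than the median gene whose group means spanned at least 1 log2 unit. Those most like Timp1, the member with the largest rise in 3+ cells against the control, were Phlda1, Sh3kbp1, Akap7, Cd109 and Fam126a, with Pearson r of 0.963 to 0.975. Those most like Mmp2, the member with the largest fall there, were Cul7, Nrbp2, Tmem106b, Ctps2 and Magee1, with r of 0.981 to 0.992. The arrays in these correlations fall into 5 groups and share replicate numbers, and the values are a description.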

How the data were processed

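Total RNA of 10 samples was measured on Affymetrix arrays. The authors deposited 1 table of linear intensity for 45101 probe sets. RMA is named for 4 arrays in the submitters' processing notes, with no version, and no tool is given in the sources used here for the other 6. Values under 1 were to be raised to 1 (0 were), and the deposited intensity was then taken to log2 and quantile normalized across the arrays. Gene symbols came from the platform annotation of the probe sets (34945 with 1 gene, 932 with several, 9160 unlisted), and 64 control probe sets were left out. The brightest probe set by its mean over the arrays stood for a gene in lists. The 5 groups were fitted to all 10 arrays with limma 3.58.1 in R 4.3.3 (lmFit, eBayes, 5 residual degrees of freedom, and 4 for the slope). P-values were two-sided with Benjamini-Hochberg adjustment over 45037 probe sets. The method was also tried on simulated data in which the arrays were not paired, so that trial does not cover the pairing described next. The replicate numbers were taken to pair the samples from the data, since arrays of one number deviated together from their groups' means in all 10 pairs of groups (r of 0.435 to 0.83). The fit without the block is given first. Where the block changed calls, the blocked value or the blocked count is given. The members, lists, tests and the rule for named genes (all members, up to 6 called genes per list, 5 genes most alike to 2 members) were chosen with earlier results of these data known. Alternatives were other normalizations, a floor of 16, only probe sets above the median, 1 probe set per gene, only the compared arrays, the block, and each array left out. Comparisons of 1 with 0 and of 3 or more with 2 divisions were added after seeing the data.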

Additional observations from a re-analysis of the deposited data

Results flagged for a closer look

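The difference from the control was unequal between induced cohorts for 3 of the genes, by tests of one cohort against another in limma. For Mmp13 the log2 difference was 3.40 for 2 against 0 divisions, 1.43 for 3+ against 0, and -1.98 for 3+ against 2. For Mmp2 it was -1.33 on both probe sets for 3+ against 0 divisions. For 3+ against 2 it was -1.24 on the brighter Mmp2 probe set. The other, at -1.17, did not pass without the replicate block and did with it. For Timp1 it was 0.87 for 3+ against 0. All of these calls were lost in some fits that left out 1 array, as given above. Where that array was of neither compared cohort, the difference itself did not change. The comparisons with 3+ divisions set arrays of the 2 label sets against each other, and set and cohort cannot be told apart there.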

How the results depend on the processing

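The count of the 22 probe sets past the test was unchanged in every comparison without quantile normalization or with arrays centred on their median, except 3+ against 2 divisions (1 each, against 2). With a floor of 16 the counts became 0 for 1 division against control, 5 for 3+ against control (10 before), and 0 for 2 against 0, 3+ against 0 (4 before) and 3+ against 2. Under that floor the log2 differences of the brightest probe sets of Mmp2, Mmp14, Timp1 and Timp3 did not change, and only their adjusted p moved. With only probe sets above the median, which leaves out Mmp13, the counts became 1 for 2 divisions against control and 0 for 2 against 0. They rose to 11 for 3+ against control and 6 for 3+ against 0. With 1 probe set per gene 4 of 10 were called for 3+ against control, fewer because fewer are tested. For 3+ against 2 divisions 3 of 10 were called, against 2 of the 22 before. In the compared arrays alone they became 0 for 1 division against control, 1 for 2 against control, 0 for 2 against 0 and 2 for 3+ against 0. The replicate block gave 3 for 2 against 0, 10 for 3+ against 0, 11 for 3+ against 2 and 2 for the slope, and changed no other count by over 1.5 times. Leaving out 1 array gave 0 to 1 for 1 division against control, 0 to 2 for 2 against control, 1 to 14 for 3+ against control, 0 to 1 for 2 against 0, 0 to 6 for 3+ against 0 and 0 to 2 for 3+ against 2. Differences from the control at 3+ divisions that turned sign when 1 array was left out were those of Mmp3 (-1.25 to 1.94), Mmp9 (-0.18 to 0.27) and Mmp10 (-0.021 to 0.097), none of them called, and Mmp9 also turned with a floor of 16 (-0.066). For 62 other differences of the brightest probe sets, not called in any of 995 fits, the sign turned in 54 fits of 34 differences. Over all probe sets, 3+ against control gave 9304 calls, 4410 without 3+ replicate 2 and 6179 without control replicate 1. 2 divisions against control gave 1871, and 136 in the compared arrays alone, 985 with the floor of 16 and 4834 with the block. 1 division against control gave 303, and 0, 94 and 1833 under the same 3 settings, and 0 divisions 55, 0, 36 and 819. Against 0 divisions, 3+ gave 4184 (2634 with the floor, 8300 with the block) and 2 divisions 22 (4 and 389), and 3+ against 2 gave 1317 (356 and 5561, and 773 in the compared arrays). With 1 array left out, the lowest of these totals were 2 for 3+ against 2 and 476 for 3+ against 0, both without 3+ replicate 2, 138 for 2 against control without replicate 1 of 2 divisions, 9 for 1 against control without replicate 2 of 1 division, 1 for 0 against control without replicate 1 of 0 divisions, and 0 for 2 against 0 without an array of 0 or 3+ divisions or replicate 1 of 2 divisions. 3+ against 2 gave 13 without replicate 2 of 2 divisions. The cause of these changes was not tested. Dim readings of Mmp9, Mmp10 and Mmp13 limit what their differences can show.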
